A study of Mus musculus with 8 samples.

Results

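The Hox genes described here were the 37 protein-coding members found by symbol, Hox followed by a cluster letter from a to d and a position number, among 20240 genes measured in mouse kidney. They comprised 11 genes of HoxA on chromosome 6, 9 of HoxB on chromosome 11, 8 of HoxC on chromosome 15 and 9 of HoxD on chromosome 2 (RefSeq, GRCm38.p6). The material was poly(A)-selected RNA of entire C57BL/6 kidneys, in 8 libraries with 2 to a group. The groups were PKD_FP and PKD_DMSO, from mice with autosomal dominant polycystic kidney disease, and WT_FP and WT_DMSO, from wild-type mice. FP stands for flavopiridol, an inhibitor of cyclin-dependent kinases that include Cdk9, the kinase of the elongation factor P-TEFb, and DMSO is its solvent control. The sources used here name neither the mutated gene nor a dose or an age. They also do not say that replicates were separate animals, so the p-values reflect only how these samples scatter, which may be technical. Hoxb13 and Hoxc12 were not analysed here.

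Hox genes encode homeodomain transcription factors that assign position along the head-to-tail axis of the embryo. Within each cluster the genes stand in the order of their position numbers, and genes with the same number in different clusters are paralogs that descend from one ancestral gene. Low numbers act towards the head and high numbers towards the tail, and in mouse the Hox11 paralogs Hoxa11, Hoxc11 and Hoxd11 are required together for the kidney to form. Adult kidney keeps part of this embryonic expression.

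Values were FPKM (fragments scaled by transcript length and by library size), and the step between neighbouring low values put the depth at about 14.0 to 18.2 M (mega) fragments per library. At that depth 1 fragment on a transcript of 1 kb was worth 0.0549 to 0.0715 FPKM. Of the 37 genes, 21 averaged 10 FPKM or more over the 8 libraries, 8 averaged from 1 to under 10, and 8 averaged under 1. A filter of at least 1 FPKM in at least 2 libraries passed 29 of the 37 genes, and tests cover those 29. Those below it included Hoxb1 and Hoxd1 at position 1, Hoxc11, and Hoxa13, Hoxc13, Hoxd12 and Hoxd13 at the tail ends of their clusters. As a bulk measurement, a lower level can reflect fewer cells of a type or less RNA per cell, and these cannot be told apart.

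Before any comparison, the 2 libraries of a group often differed for many Hox genes at once. In WT_FP, 27 of the 29 genes were higher in replicate 2 than in replicate 1, with a median ratio of 1.49, against 1.10 over all genes tested. In PKD_FP, 26 were higher in replicate 2 (median ratio 1.31, all genes 1.06). In WT_DMSO the direction was opposite: 27 were lower in replicate 2 (median ratio 0.584, all genes 0.865). In PKD_DMSO, 20 were lower in replicate 2 (median ratio 0.909, all genes 1.004). Over all genes tested, the share higher in replicate 2 was 64.6% in WT_FP, 58.0% in PKD_FP, 33.4% in WT_DMSO and 50.6% in PKD_DMSO. PKD_FP replicate 2 was the highest library for 14 of the 29 genes and WT_FP replicate 2 for 10, while WT_DMSO replicate 2 was the lowest for 15.

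Marker lists of other tissue parts moved between the same libraries. The summed level of 10 urothelium and renal pelvis markers was 128 FPKM in replicate 1 and 462 in replicate 2 of PKD_FP, 230 and 190 in PKD_DMSO, 57.3 and 313 in WT_FP, and 131 and 78.2 in WT_DMSO. The sum of 10 adipocyte markers was 148 and 384 FPKM in PKD_FP, 159.8 and 254.8 in PKD_DMSO, 188 and 1697 in WT_FP, and 288 and 115 in WT_DMSO. The 14 markers of collecting duct principal cells summed to 1888 and 2238 FPKM in PKD_FP, 1624 and 1391 in PKD_DMSO, 1072 and 2409 in WT_FP, and 1605 and 1194 in WT_DMSO. WT_FP replicate 2 thus exceeded WT_FP replicate 1 on all 3 lists, and none of their markers was at 0 in every library. Between genotypes, the 16 proximal tubule markers summed to 2692 to 5541 FPKM in PKD libraries and 22873 to 33720 in WT libraries, and the 15 fibroblast and myofibroblast markers to 965 to 2423 FPKM in PKD and 220 to 566 FPKM in WT libraries. The part of tissue composition in the Hox results below was not tested.

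**Figure D1:**
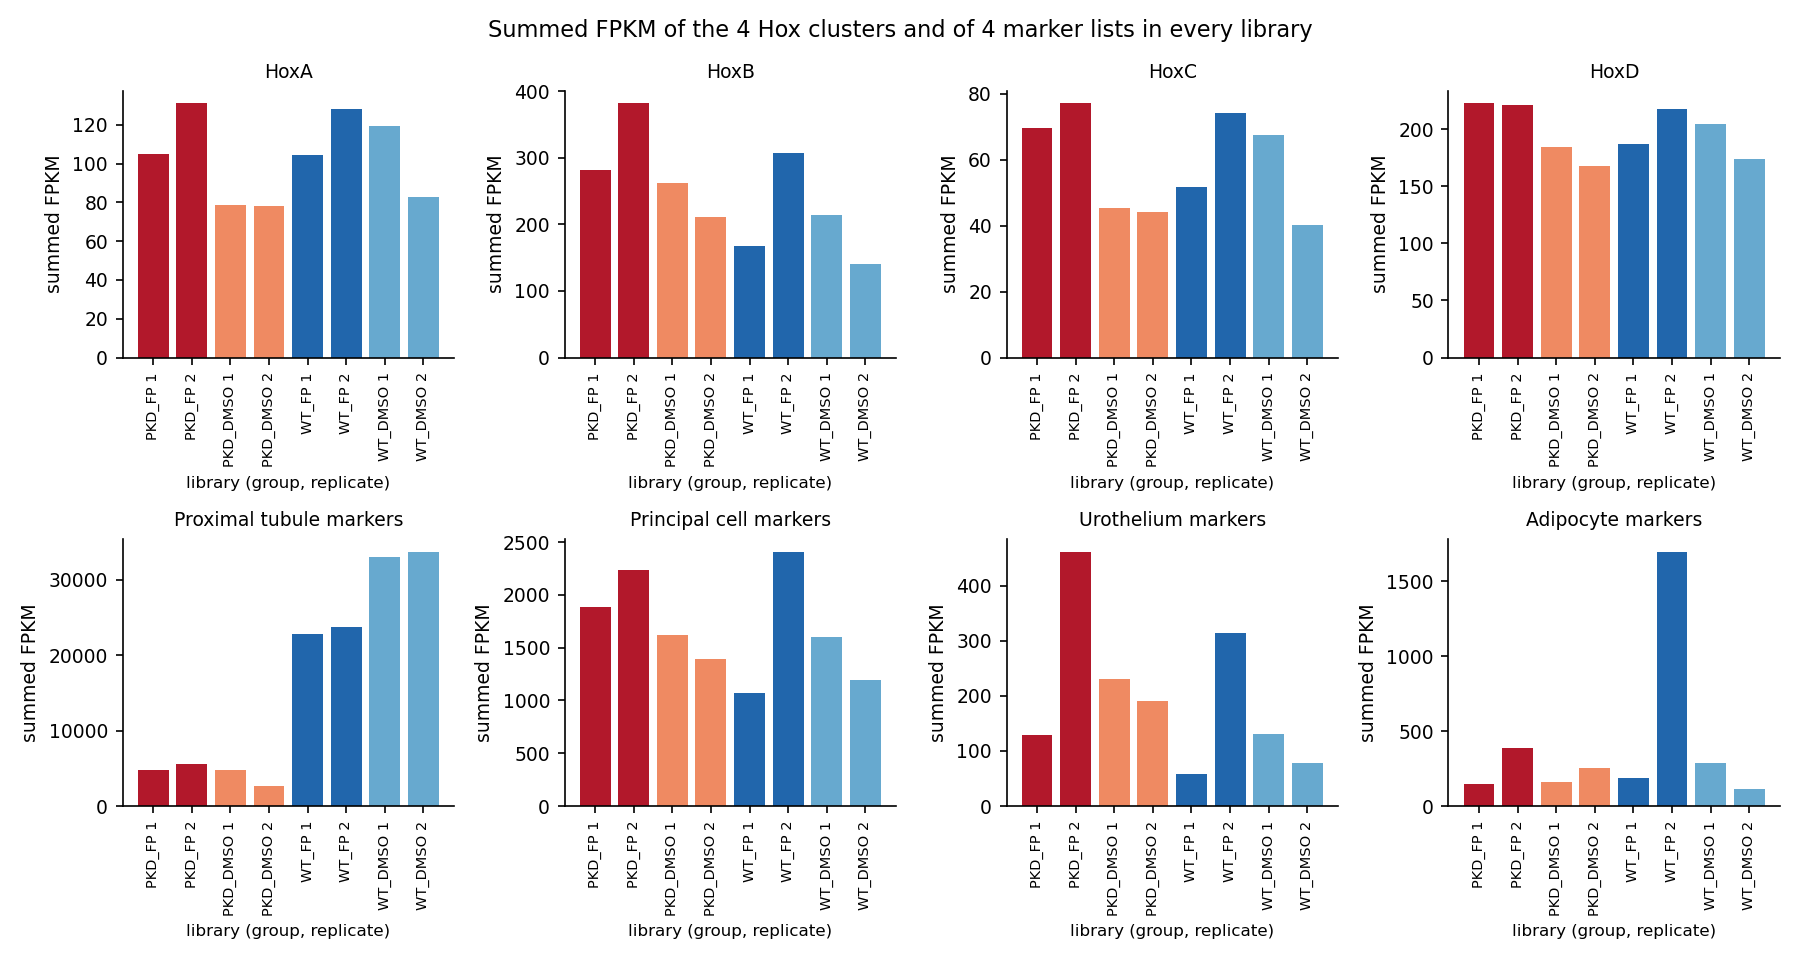
Summed FPKM of each Hox cluster (upper row) and of 4 marker lists (lower row) in each of the 8 libraries, coloured by group (red PKD_FP, orange PKD_DMSO, dark blue WT_FP, light blue WT_DMSO). HoxB varied most, with 382 FPKM in PKD_FP replicate 2 and 140 in WT_DMSO replicate 2, and HoxD least, between 168 and 223.

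HoxB and HoxD carried most of the Hox RNA. Per library, HoxB genes summed to 282 and 382 FPKM in PKD_FP, 262 and 212 in PKD_DMSO, 167 and 307 in WT_FP, and 215 and 140 in WT_DMSO. HoxD genes summed to 223 and 221 FPKM in PKD_FP, 184 and 168 in PKD_DMSO, 187 and 218 in WT_FP, and 205 and 174 in WT_DMSO. HoxB therefore spanned a 2.72-fold range over the 8 libraries and HoxD a 1.33-fold range. HoxA genes summed to 77.9 to 131 FPKM and HoxC genes to 40.3 to 77.1 FPKM. Since FPKM is scaled per transcript length, these sums compare levels between clusters.

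By position, the middle of the clusters held the largest part of the sum in every library. The 15 genes of positions 4 to 8 made up 53.1% to 59.0% of the summed Hox FPKM, and the 7 of positions 9 and 10 made up 27.3% to 33.7%. The 8 genes of positions 1 to 3 held 9.83% to 12.3%, and the 7 of positions 11 to 13 held 0.833% to 3.14%. These shares follow the number of genes in each class as well as their levels. No gene of positions 12 and 13 exceeded 0.05 FPKM in any library, which is less than 1 fragment on a transcript of 1 kb. At the head end, Hoxb1 reached at most 0.07 FPKM and Hoxd1 at most 0.57 FPKM, both in WT_FP replicate 2, and both were listed at 0 in some libraries. HoxA and HoxD showed a steep edge after position 11: Hoxa11 averaged 6.03 FPKM over all libraries and Hoxa13 averaged 0.0112. In HoxC the edge lay one gene earlier, between Hoxc10 at 15.4 FPKM and Hoxc11 at 0.615.

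**Figure D2:**
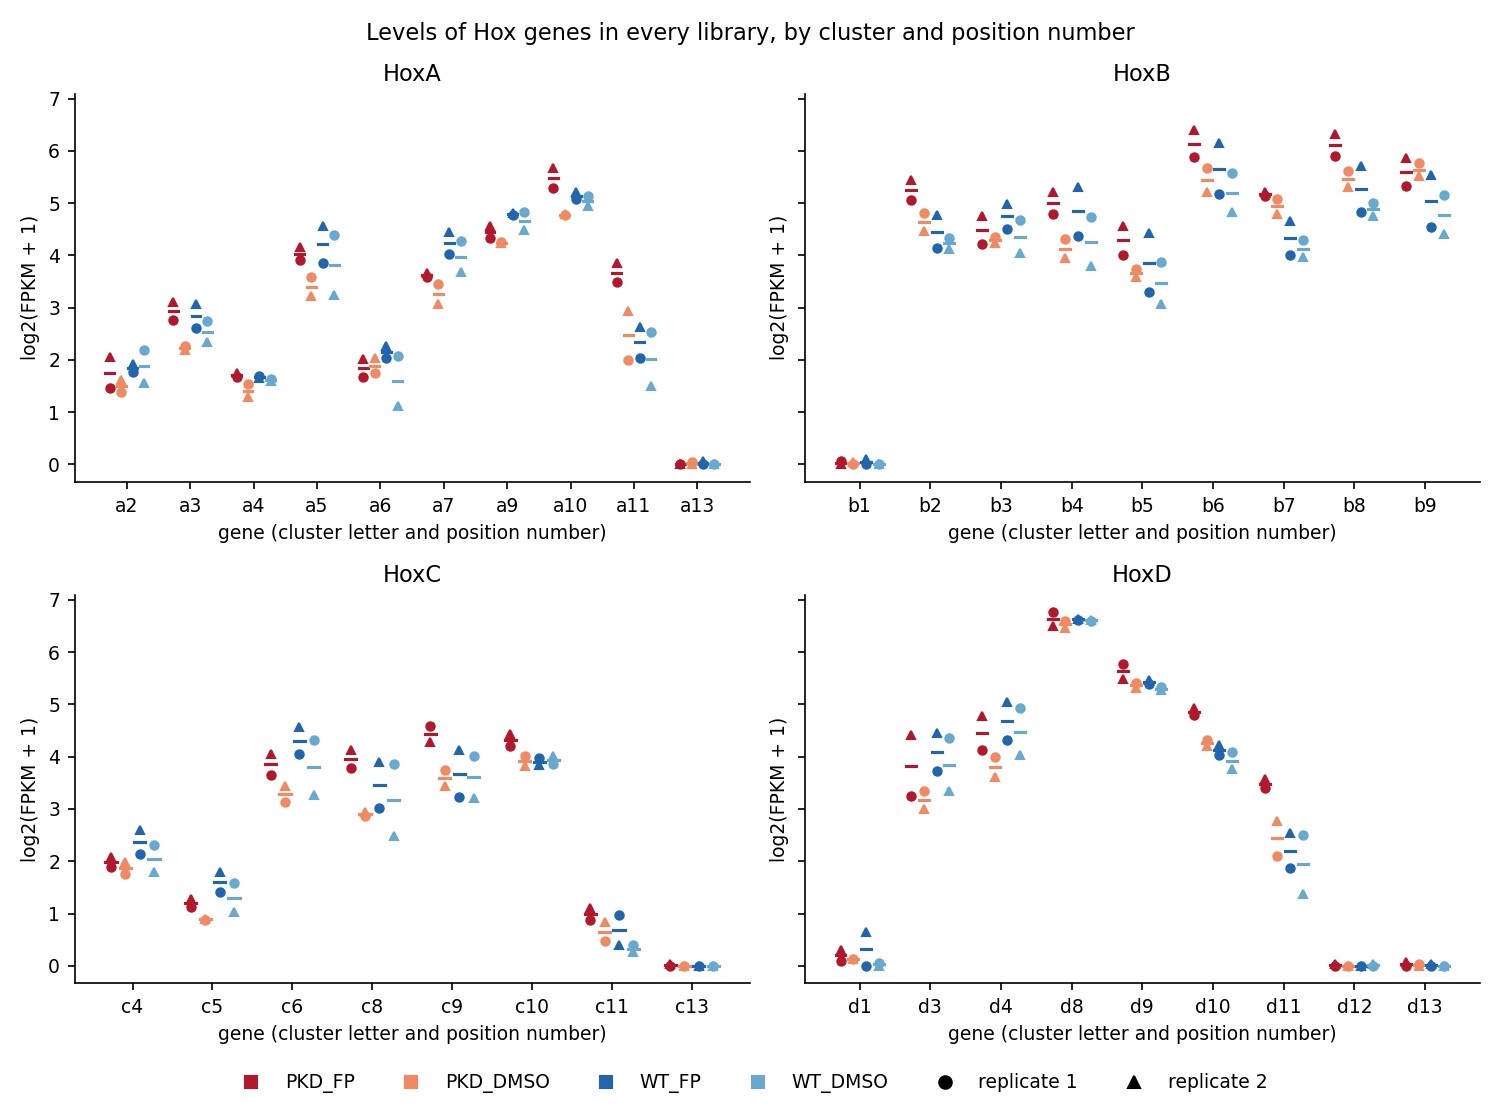
Level of the Hox genes described here as log2(FPKM + 1), in 4 panels for the clusters and ordered by position number, with each library as a point (circle replicate 1, triangle replicate 2), each group in its colour and short bars at the mean of 2 libraries. Values peak at position 8 in HoxD and fall to near 0 at positions 12 and 13, and replicate 2 lies above replicate 1 for most genes in PKD_FP and WT_FP.

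Among single genes, Hoxd8, a trunk-level member of HoxD, was both the most abundant and the steadiest of the 29. It had 107 and 89.9 FPKM in PKD_FP, 96.1 and 87.4 in PKD_DMSO, 97.1 and 98.9 in WT_FP, and 96.4 and 97.4 in WT_DMSO, a coefficient of variation of 6.25% over the 8 libraries. Hoxd9, its neighbour, had 54.0 and 44.0 FPKM in PKD_FP, 41.7 and 38.8 in PKD_DMSO, 41.0 and 43.0 in WT_FP, and 39.1 and 37.7 in WT_DMSO (12.2%). For Hoxd8 the groups overlapped between genotypes, with a log2 fold change of −0.04 ± 0.11 (SE) for PKD over WT averaged over treatment and a 95% interval of −0.29 to 0.21 (limma, adjusted p = 0.81). At the other extreme Hoxa11 varied by 65.7% and Hoxd11 by 60.3%.

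Hoxb6, Hoxb8 and Hoxb9 were the most abundant HoxB genes, and which of them led the cluster changed between libraries. Hoxb6 had 58.0 and 83.2 FPKM in PKD_FP, 50.3 and 36.2 in PKD_DMSO, 35.3 and 69.7 in WT_FP, and 46.8 and 27.3 in WT_DMSO. Hoxb8 had 58.5 and 78.6 FPKM in PKD_FP, 47.8 and 38.6 in PKD_DMSO, 27.6 and 51.2 in WT_FP, and 31.2 and 26.1 in WT_DMSO. Hoxb9 had 39.3 and 57.0 FPKM in PKD_FP, 53.2 and 45.1 in PKD_DMSO, 22.4 and 45.3 in WT_FP, and 34.6 and 20.2 in WT_DMSO. Hoxb9 led HoxB in both PKD_DMSO libraries and Hoxb6 in all 4 WT libraries, and in PKD_FP the lead was split between Hoxb8 and Hoxb6. In HoxA, Hoxa10 led in all 8 libraries, and in HoxC the lead passed between Hoxc6, Hoxc9 and Hoxc10. For PKD over WT averaged over treatment, Hoxb6 had a log2 fold change of 0.36 ± 0.28 and Hoxb9 one of 0.71 ± 0.27 (limma, adjusted p = 0.359 and 0.0885), neither called. Hoxd9 was at 0.14 ± 0.11 (limma, adjusted p = 0.345). The remaining genes of the 10 with the highest means were Hoxb7, Hoxb2, Hoxb4 and Hoxa9, at 22.5 to 25.3 FPKM on average.

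In PKD against WT kidneys averaged over treatment, 4 Hox genes were higher and 2 lower, with the increases in HoxB and HoxD and the decreases in HoxA. The increases were Hoxb2, Hoxb7, Hoxb8 and Hoxd10, and the decreases were Hoxa7 and Hoxa9. Of all 14391 genes tested, 34.3% were called in this comparison, 21.7% higher and 12.6% lower (limma, Benjamini-Hochberg adjusted p under 0.05). The 6 of 29 Hox genes called, 20.7%, were thus a smaller share than among all genes. The median log2 fold change of the 29 genes was 0.01, against 0.09 over all genes. At an unadjusted p under 0.05, 7 Hox genes were higher and 2 lower, against 28.5% and 17.1% of all genes. By cluster, 7 of 8 HoxB genes lay above 0 (median 0.48) and 2 of 9 HoxA genes did (median −0.11). In HoxC and in HoxD 3 of 6 genes did (medians −0.09 and 0.05), and 57.8% of all genes lay above 0. Median-of-ratios scaling, which brought the median of all genes to −0.01, gave 2 higher and 3 lower Hox genes. Leaving out 1 library gave between 1 higher, without PKD_DMSO replicate 1, and 5 higher, without WT_FP replicate 2. It gave 3 lower without WT_DMSO replicate 2, 1 lower without PKD_DMSO replicate 1 or WT_FP replicate 1, and 0 lower without any of the other 5. The 2 higher calls left without PKD_FP replicate 1 or 2, PKD_DMSO replicate 2, WT_FP replicate 1 or WT_DMSO replicate 2 were Hoxb7 and Hoxd10.

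Hoxb7, a trunk-level gene that is expressed in the collecting duct lineage of mouse kidney, differed most clearly. It had 34.1 and 35.9 FPKM in PKD_FP, 32.6 and 26.9 in PKD_DMSO, 15.0 and 24.3 in WT_FP, and 18.7 and 14.6 in WT_DMSO. Every PKD library lay above every WT library. The log2 fold change was 0.82 ± 0.17 (SE; limma, adjusted p = 0.0125), and the call held under all 15 other settings tried, among them each library left out in turn (0.66 to 0.99). Among all genes tested, 22% had 4 PKD libraries above the 4 WT libraries, and Hoxb7 was the only Hox gene that did.

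Hoxd10, a gene of the lumbar and limb domain, had 26.7 and 29.6 FPKM in PKD_FP, 18.9 and 17.5 in PKD_DMSO, 15.3 and 17.8 in WT_FP, and 16.0 and 12.5 in WT_DMSO. The PKD_FP libraries were the highest, and PKD_DMSO replicate 2 lay just under the highest WT library. Its log2 fold change was 0.54 ± 0.12 (limma, adjusted p = 0.0139), and without PKD_DMSO replicate 1 the call ended (adjusted p = 0.0507). Hoxb2, a head-side gene with a known role in the hindbrain, had 32.5 and 42.5 FPKM in PKD_FP, 26.98 and 21.2 in PKD_DMSO, 16.6 and 26.4 in WT_FP, and 19.2 and 16.5 in WT_DMSO. Its fold change was 0.60 ± 0.18 (limma, adjusted p = 0.0413) and that of Hoxb8 was 0.70 ± 0.22 (limma, adjusted p = 0.0448). For both, WT_FP replicate 2 lay inside the PKD range. Both calls ended when any single library other than WT_FP replicate 2 was left out, with adjusted p up to 0.124 for Hoxb2 and 0.132 for Hoxb8.

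The 2 HoxA genes went the other way. Hoxa7 had 11.1 and 11.6 FPKM in PKD_FP, 9.91 and 7.45 in PKD_DMSO, 15.3 and 20.8 in WT_FP, and 18.3 and 11.8 in WT_DMSO. Its highest PKD value, 11.6, lay just under its lowest WT value, 11.8, and 11.7% of all genes tested had all PKD libraries below all WT libraries. The log2 fold change was −0.66 ± 0.18 (limma, adjusted p = 0.0297). That call ended without either PKD_FP library, PKD_DMSO replicate 2, WT_FP replicate 2 or WT_DMSO replicate 1 (adjusted p up to 0.105).

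Hoxa9, the next expressed gene of the cluster, had 19.0 and 22.7 FPKM in PKD_FP, 18.1 and 17.9 in PKD_DMSO, 26.3 and 26.97 in WT_FP, and 27.3 and 21.4 in WT_DMSO. Only PKD_FP replicate 2 reached the WT range. The log2 fold change was −0.38 ± 0.12 (limma, adjusted p = 0.0439), and the call held only when WT_DMSO replicate 2 was the library left out (adjusted p up to 0.125 otherwise).

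**Figure D3:**
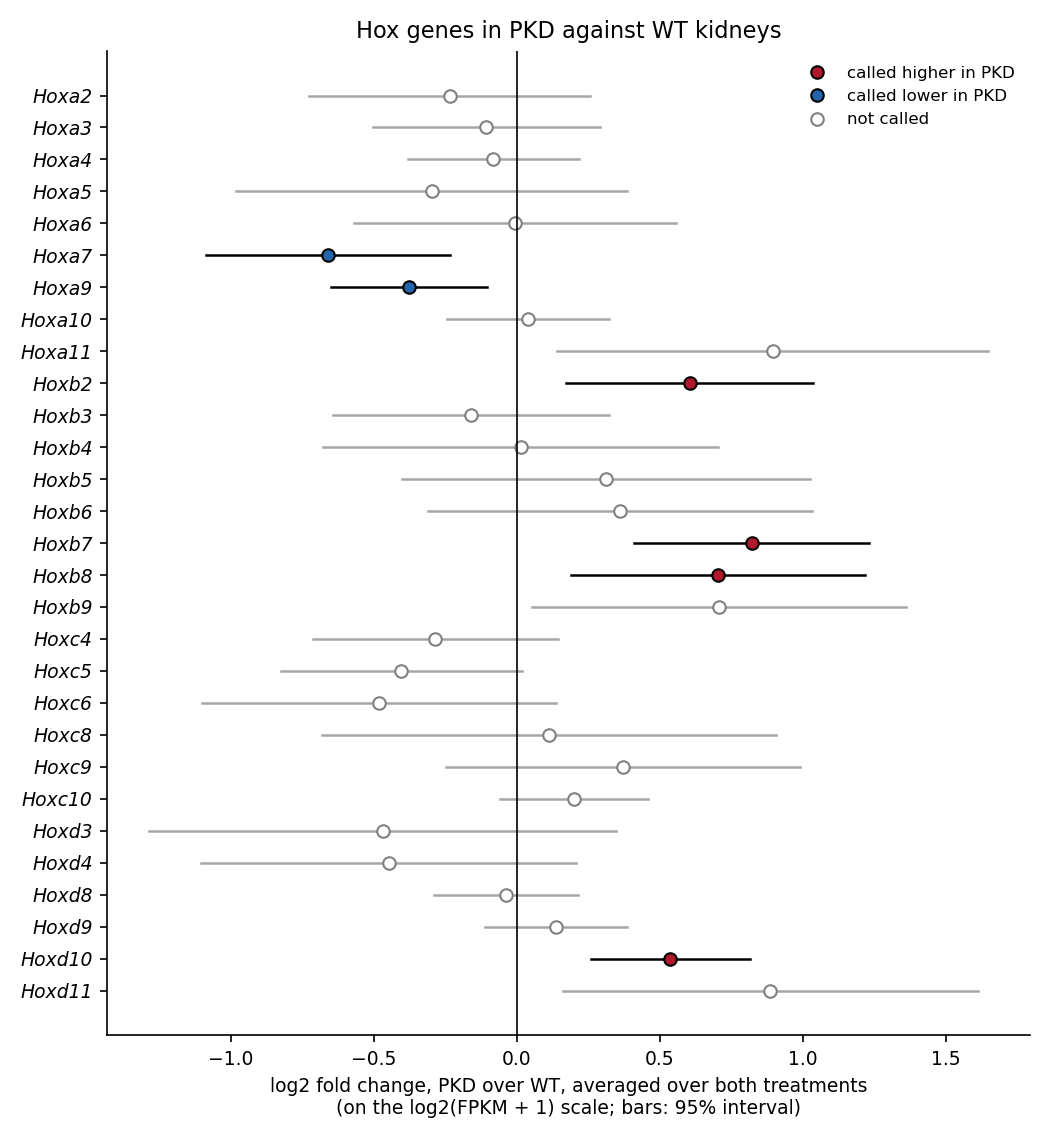
Log2 fold change of PKD over WT, averaged over both treatments, for the 29 Hox genes tested, with 95% intervals on the log2(FPKM + 1) scale; filled red points are called higher, filled blue points lower and open points are not called. Called increases are Hoxb2, Hoxb7, Hoxb8 and Hoxd10, called decreases are Hoxa7 and Hoxa9, and Hoxa11 and Hoxd11 have the largest point estimates with wide intervals.

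Promoter windows are shown for the called genes that had one, which Hoxb2 and Hoxb7 did not. Any part of the motifs in the direction of the calls was not tested. RefSeq gave windows of 250 bases before to 50 after a transcription start for 22 of the 37 genes (24 windows, GRCm38.p6), among them 4 of the 6 called genes. For 20 of the 24 windows, bases after the start were found in a GENCODE reference transcript of the gene. For the Hoxd10 and Hoxa7 windows they were not, so those starts are less certain. Capitals mark matches, on either strand, to 7 motifs. These were the TATA box TATAAA, the CCAAT box, the cAMP response element TGACGTCA and, counted on its own, its core TGACG. The others were the PBX-HOX site TGATNNAT, the retinoic acid half-site AGGTCA and the HOX core TTAATNA. Sequences read 5′ to 3′ along the gene.
Hoxb8 promoter, chr11:96281655-96281954, plus strand: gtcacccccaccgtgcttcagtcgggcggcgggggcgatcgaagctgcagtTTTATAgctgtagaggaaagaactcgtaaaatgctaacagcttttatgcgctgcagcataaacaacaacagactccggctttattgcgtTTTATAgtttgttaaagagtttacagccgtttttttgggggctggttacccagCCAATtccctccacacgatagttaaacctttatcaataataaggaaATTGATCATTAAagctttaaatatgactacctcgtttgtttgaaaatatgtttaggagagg
Hoxd10 promoter, chr2:74691641-74691940, plus strand: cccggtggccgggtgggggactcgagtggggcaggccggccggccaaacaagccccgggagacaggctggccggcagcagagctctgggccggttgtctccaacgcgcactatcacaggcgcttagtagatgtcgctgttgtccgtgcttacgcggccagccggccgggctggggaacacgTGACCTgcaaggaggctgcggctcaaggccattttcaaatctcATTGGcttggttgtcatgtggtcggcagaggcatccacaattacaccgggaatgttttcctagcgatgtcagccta
Hoxa7 promoter, chr6:52218524-52218823, minus strand: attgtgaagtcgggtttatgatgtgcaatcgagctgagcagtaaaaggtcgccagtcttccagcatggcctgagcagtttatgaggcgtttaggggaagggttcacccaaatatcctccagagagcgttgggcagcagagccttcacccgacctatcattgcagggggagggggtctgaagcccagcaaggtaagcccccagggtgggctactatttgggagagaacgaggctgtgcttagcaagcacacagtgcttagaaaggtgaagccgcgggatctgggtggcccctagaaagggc
Hoxa9 promoter, chr6:52227321-52227620, minus strand: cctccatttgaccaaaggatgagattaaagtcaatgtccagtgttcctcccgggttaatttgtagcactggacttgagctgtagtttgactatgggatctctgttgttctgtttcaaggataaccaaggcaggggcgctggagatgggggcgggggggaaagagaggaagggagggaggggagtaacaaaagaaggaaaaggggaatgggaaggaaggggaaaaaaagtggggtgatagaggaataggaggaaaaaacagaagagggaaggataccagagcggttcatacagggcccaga

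The Hoxb8 window held 2 TATAAA matches on the minus strand, at 199 and 110 bases before the start, 1 CCAAT at 57 bases, and a TGATNNAT match that overlapped a TTAATNA match close to the start. The Hoxd10 window held CCAAT at 26 bases and AGGTCA at 69 bases before its listed start, both on the minus strand. None of these letters occurred in the Hoxa7 and Hoxa9 windows. Over all 24 Hox windows, CCAAT was present in 62.5%, against 37.4% of all 32851 windows in the table, and TATAAA in 16.7%, against 13.6%. TGATNNAT was present in 16.7% against 8.85%, TTAATNA in 16.7% against 10.9%, AGGTCA in 29.2% against 16.3%, and TGACG in 29.2% against 20.8%. No Hox window held TGACGTCA, which 1.79% of all windows did. The Hox windows also differed in base content, with a median GC of 57.7% against 52.7% and a median of 14.5 CpG against 7. These shares were not tested.

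Within each treatment the calls were fewer. For PKD_DMSO against WT_DMSO, limma called 0 of 29 Hox genes, against 22.3% of all genes (14.8% higher and 7.52% lower). At an unadjusted p under 0.05 there were 1 higher and 2 lower, against 24.9% and 13.1% of all genes. Both PKD_DMSO libraries lay above both WT_DMSO libraries for 5 Hox genes and below them for 8, against 41.2% and 24.5% of all genes. Hoxb7 came nearest the threshold, at 0.81 ± 0.24 (limma, adjusted p = 0.0565), and Hoxa7 was at −0.71 ± 0.25 (limma, adjusted p = 0.0882). The 6 HoxC genes had log2 fold changes from −0.52 to −0.01, none called. Under median-of-ratios scaling and under quantile normalization 2 Hox genes were called lower, and without either WT_FP library, which share the estimate of spread, 1 was called higher.

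For PKD_FP against WT_FP, 1 of 29 Hox genes was called higher and 0 lower, against 13.9% of all genes called, 8.71% higher and 5.23% lower. That gene was Hoxd10, at 0.73 ± 0.17 (limma, adjusted p = 0.0335). Leaving out any 1 of the PKD_FP, PKD_DMSO or WT_FP libraries ended its call (adjusted p up to 0.17), as did fitting only the groups compared. Without WT_FP replicate 2, 2 Hox genes were called higher. At an unadjusted p under 0.05, 7 Hox genes were higher and 1 lower, against 18.9% and 12.5% of all genes. Both PKD_FP libraries lay above both WT_FP libraries for 10 Hox genes and below them for 5, against 34.6% and 25.2% of all genes. The largest fold changes belonged to Hoxa11, at 1.33 ± 0.45 (limma, adjusted p = 0.0958), and Hoxd11, at 1.28 ± 0.43 (limma, adjusted p = 0.0968).

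Ratios between paralogs within a library are free of that library's scaling, and they are given as a description. Of 30 paralog pairs among the genes tested, 6 had a higher ratio in every PKD library than in any WT library and 3 had a lower one. The gene of the later cluster letter was always set over that of the earlier, and the opposite order would swap higher and lower. The directions of single genes are therefore not a like measure. Among all single genes tested, 22% lay higher in every PKD library and 11.7% lower, and the share over other gene pairs was not counted. Pairs share genes and reuse the values above, so these counts are not independent. Of the 7 pairs of a HoxB gene over its HoxA paralog, 4 were among the higher ones: Hoxb2/Hoxa2, Hoxb5/Hoxa5, Hoxb7/Hoxa7 and Hoxb9/Hoxa9. Hoxb7/Hoxa7 was 3.08 and 3.09 in PKD_FP, 3.29 and 3.61 in PKD_DMSO, 0.980 and 1.17 in WT_FP, and 1.02 and 1.24 in WT_DMSO. Hoxb9/Hoxa9 ranged from 2.06 to 2.95 in PKD and from 0.851 to 1.68 in WT libraries. For both pairs the 4 PKD ratios stood apart from the 4 WT ratios. Hoxd9/Hoxa9 and Hoxd10/Hoxa10 were also higher in every PKD library, and Hoxd4/Hoxb4, Hoxc5/Hoxb5 and Hoxc6/Hoxb6 were lower. Hoxd4/Hoxb4, for example, was 0.622 to 0.789 in PKD and 0.823 to 1.199 in WT libraries. A ratio shows unequal change of the pair and not which gene moved.

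**Figure D4:**
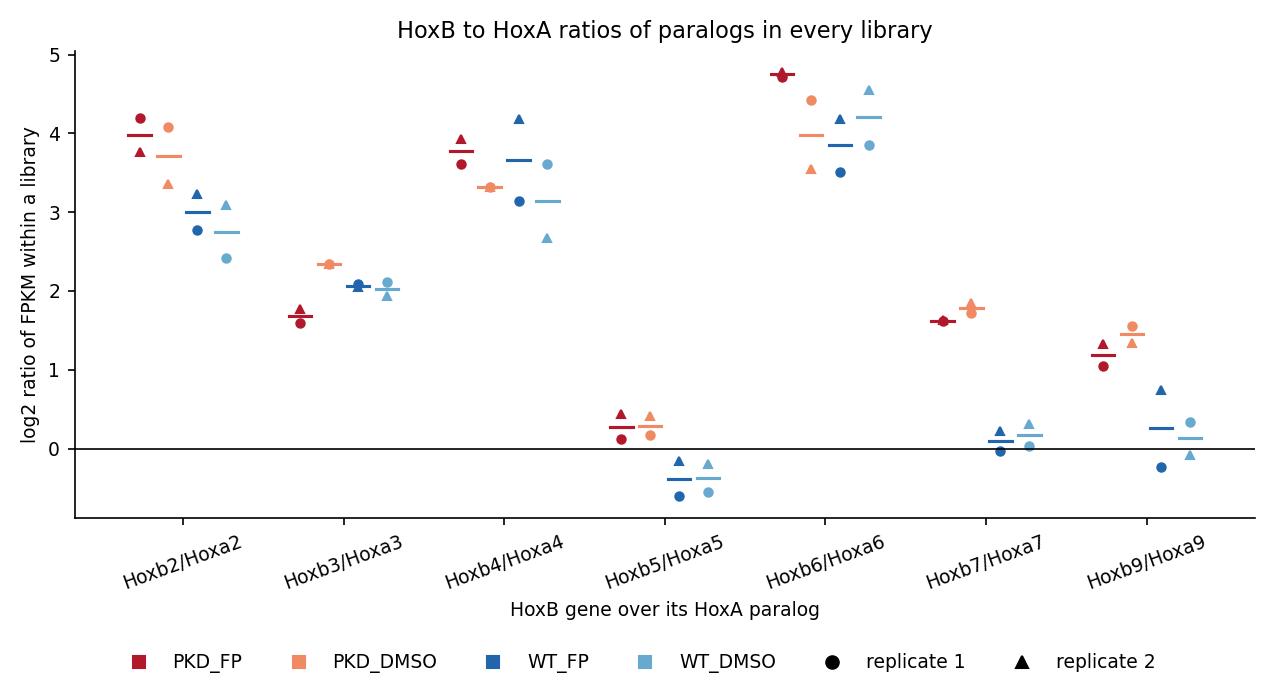
Log2 ratio of each HoxB gene to its HoxA paralog within a library, for 7 pairs in order of position number, with groups in colour, replicates as circle or triangle and short bars at the group mean. For Hoxb7/Hoxa7 the 4 PKD libraries (ratios 3.08 to 3.61) stand apart from the 4 WT libraries (0.980 to 1.24), while Hoxb3, Hoxb4 and Hoxb6 ratios overlap between genotypes.

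Flavopiridol was compared with DMSO within PKD kidneys to ask what the kinase inhibitor changed in the diseased organ. No Hox gene passed the threshold: limma called 0 of 29, against 0.0139% of all genes, 0.00695% in each direction. Of the 29 log2 fold changes 27 lay above 0, as did 54.0% of all genes, and the median was 0.60 against 0.04 over all genes. At an unadjusted p under 0.05, 7 genes were higher and 0 lower, against 10.3% and 9.14% of all genes. For 22 of the 29 genes both PKD_FP libraries exceeded both PKD_DMSO libraries, which was so for 31.4% of all genes tested, and for 0 of the 29 they lay below (25.2% of all genes). Since most Hox genes also moved together between replicates, these counts are not independent. Without PKD_FP replicate 2 the median was 0.35.

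Marker levels differed between the same 4 libraries. In PKD_FP against PKD_DMSO, the 8 erythroid markers summed to 952 and 976 FPKM against 204 and 286, the 12 endothelial markers to 378 and 417 against 137 and 374, and the 14 principal cell markers to 1888 and 2238 against 1624 and 1391. Of 6 erythroid markers tested, 1 was called higher. Their part in the Hox differences was not tested.

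Hoxa10, which acts with other Hox10 genes to set lumbar identity in mouse, had the smallest adjusted p of the members in this comparison. It had 38.0 and 49.96 FPKM in PKD_FP, 26.4 and 26.6 in PKD_DMSO, 32.7 and 35.9 in WT_FP, and 34.0 and 29.9 in WT_DMSO. Both PKD_FP libraries were the highest of the 8 and both PKD_DMSO libraries the lowest. The log2 fold change of PKD_FP over PKD_DMSO was 0.70 ± 0.17 (limma, adjusted p = 0.129) and did not pass. Hoxb4, which lies between the head-side and trunk genes of HoxB, had 26.7 and 36.1 FPKM in PKD_FP and 19.0 and 14.4 in PKD_DMSO, against 19.6 and 38.9 in WT_FP and 25.6 and 12.9 in WT_DMSO. Its WT libraries spanned the whole range of the PKD libraries, and it was not called in any comparison.

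In WT kidneys, limma called 0 of 29 Hox genes for WT_FP against WT_DMSO, as it did 0 of all genes, and 0 members reached an unadjusted p under 0.05 (0.91% of all genes higher and 0.361% lower). Of the 29 log2 fold changes 27 lay above 0, with a median of 0.26 against 0.09 over all genes, of which 69.6% lay above 0. Only Hoxa4 and Hoxd9 had both WT_FP libraries above both WT_DMSO libraries, where 16.6% of all genes did, and 0 had them below (5.32% of all genes). That median depended on single libraries. It was 0.03 when WT_FP replicate 2 was left out, 0.02 for WT_DMSO replicate 2, 0.56 for WT_FP replicate 1 and 0.58 for WT_DMSO replicate 1. The comparisons within and between genotypes share libraries, so their values are given side by side only. The interaction of genotype and drug tests whether the drug difference was unequal between genotypes, and limma called 0 Hox genes and 0 of all genes there. At an unadjusted p under 0.05 there was 1 Hox gene, Hoxa10, higher at 0.60 ± 0.24 (limma, adjusted p = 0.436), and 0 lower, against 4.45% and 6.78% of all genes.

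The most tail-ward expressed genes, Hoxa11 and Hoxd11, varied most and varied together. Hoxa11 had 10.2 and 13.4 FPKM in PKD_FP, 3 and 6.70 in PKD_DMSO, 3.09 and 5.23 in WT_FP, and 4.78 and 1.83 in WT_DMSO. Hoxd11 had 9.52 and 10.8 FPKM in PKD_FP, 3.27 and 5.86 in PKD_DMSO, 2.64 and 4.81 in WT_FP, and 4.69 and 1.59 in WT_DMSO. For both genes the 2 PKD_FP libraries were the highest and the other 6 libraries overlapped between groups. Their order over the libraries was nearly the same (Pearson r = 0.99 and Spearman rho = 0.976 over 8 libraries that fall into 4 groups), although the genes lie on different chromosomes, and Hoxd11/Hoxa11 stayed between 0.810 and 1.09. Averaged over treatment, PKD over WT gave 0.90 ± 0.32 for Hoxa11 (limma, adjusted p = 0.0686) and 0.89 ± 0.31 for Hoxd11 (limma, adjusted p = 0.0628), neither called. Hoxc11, the third Hox11 paralog, was at 0.20 to 1.14 FPKM.

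Next to Hoxa11 lies Hoxa11os, its antisense noncoding transcript whose span overlaps that of Hoxa11 by 568 bases (chr6:52245243-52249769). It had 8.19 and 12.2 FPKM in PKD_FP, 4.44 and 5.68 in PKD_DMSO, 3.93 and 4.66 in WT_FP, and 8.03 and 2.56 in WT_DMSO. Hoxa11os/Hoxa11 was 0.800 to 1.68. No source used here says whether counting used strand, so reads of the shared stretch cannot be told apart. The same holds for other members: the spans of 14 of the 37 genes overlap another gene in the files, 10 of them another Hox gene, such as Hoxa3 with Hoxa4, Hoxa5 and Hoxa6, and Hoxd10 with Hoxd11.

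**Figure D5:**
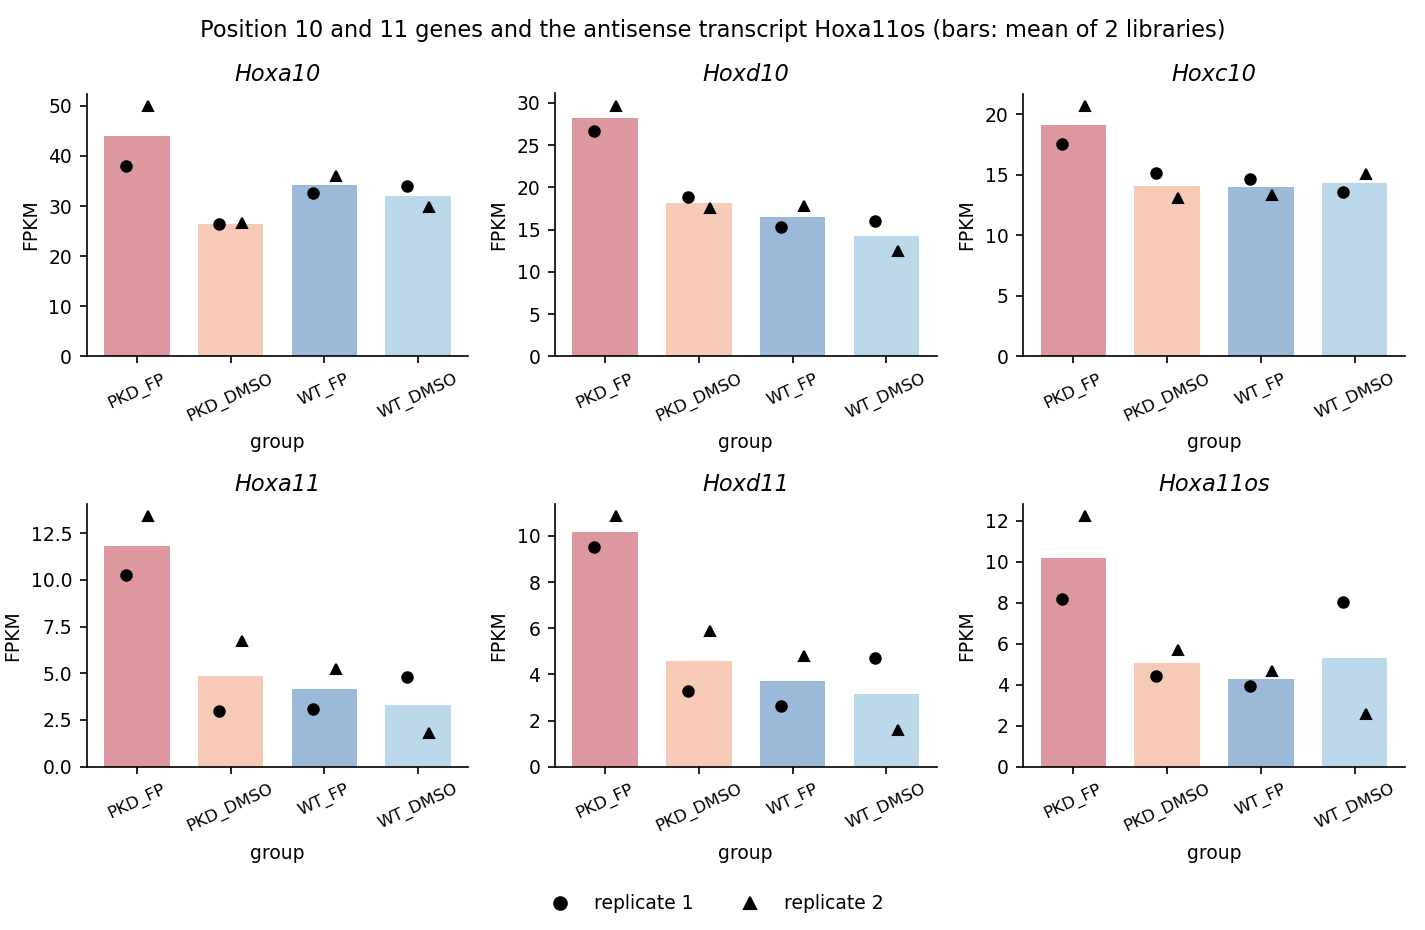
FPKM of 3 position 10 genes, 2 position 11 genes and the antisense transcript Hoxa11os in the 4 groups; bars are means of 2 libraries and points the libraries (circle replicate 1, triangle replicate 2). The PKD_FP libraries are the highest for Hoxa10, Hoxd10, Hoxc10, Hoxa11, Hoxd11 and Hoxa11os, and no member shown passed the threshold for PKD_FP over PKD_DMSO.

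Some noncoding transcripts in or beside the clusters were called where the nearest Hox genes were not. Of 24 tested noncoding and flanking genes, 2 were higher and 4 lower in PKD averaged over treatment, against the 21.7% and 12.6% of all genes. Halr1, a long noncoding RNA beside the head end of HoxA, had 0.54 and 0.60 FPKM in PKD_FP, 2.03 and 0.62 in PKD_DMSO, 5.90 and 3.75 in WT_FP, and 4.66 and 3.41 in WT_DMSO, all PKD libraries below all WT libraries. It fell by 1.52 on the log2 scale (SE 0.24; limma, adjusted p = 0.00494), while Hoxa2 was not called. PKD_DMSO replicate 1 was the only PKD library in which Halr1 reached 1 FPKM, so it passed the filter through its WT libraries. Hoxb5os, a noncoding transcript whose span covers Hoxb5 and Hoxb6, had 47.1 and 29.2 FPKM in PKD_FP, 23.7 and 23.6 in PKD_DMSO, 40.2 and 44.2 in WT_FP, and 47.7 and 44.5 in WT_DMSO. Both PKD_DMSO libraries were the lowest, and it fell by 0.93 in PKD_DMSO against WT_DMSO (SE 0.22; limma, adjusted p = 0.0283), where Hoxb5 and Hoxb6 had 0.19 ± 0.42 and 0.25 ± 0.40. Hotairm1, a noncoding transcript in the head-side part of HoxA, had 17.9 to 34.5 FPKM and was not called. Hotair and Hottip, noncoding RNAs of the tail ends of HoxC and HoxA, stayed at or below 0.15 FPKM. Of the flanking genes, Skap2 was higher (0.72 ± 0.11; limma, adjusted p = 0.00407) and Hibadh lower (−1.42 ± 0.19; limma, adjusted p = 0.00296).

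The clusters also hold microRNA genes, of which miR-196 is known to target Hoxb8 mRNA in mouse. Mature sequences of the 2 miR-196 forms are shown to make plain that they share a seed, bases 2 to 8, in capitals (RefSeq, GRCm38.p6).
mmu-miR-196b-5p: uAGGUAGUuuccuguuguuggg
mmu-miR-196a-5p: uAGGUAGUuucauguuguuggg
Both carry the seed AGGUAGU and differ at 1 base outside it. Mir196b lies in HoxA between Hoxa9 and Hoxa10 (chr6:52230081-52230165, hairpin of 85 bases), and Mir196a-1 lies in HoxB beyond Hoxb9 (chr11:96265164-96265265). The entry Mir196b had 3.46 and 1.29 FPKM in PKD_FP, 2.29 and 2.21 in PKD_DMSO, 18.4 and 4.30 in WT_FP, and 8.55 and 13.4 in WT_DMSO, with every PKD value below every WT value. It fell by 1.76 on the log2 scale (SE 0.43; limma, adjusted p = 0.0214). Mir196a-1 had 19.7 and 17.2 FPKM in PKD_FP, 34.7 and 20.5 in PKD_DMSO, 32.2 and 29.7 in WT_FP, and 26.4 and 18.0 in WT_DMSO, and was not called. These libraries hold poly(A) RNA, so the values count fragments of longer transcripts over a short hairpin and say nothing of the mature microRNA, and few fragments give a large FPKM at that length.

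Genes that act on or with Hox genes were counted by list, in PKD against WT averaged over treatment unless stated. In that comparison 21.7% of all genes were called higher and 12.6% lower, with a median log2 fold change of 0.09. Of 11 TALE homeodomain genes, whose products bind DNA together with Hox proteins or compete with those that do, 4 were higher and 0 lower (median 0.48): Tgif1, Tgif2, Pknox2 and Pbx3. The last 3 lay close to the threshold (limma, adjusted p = 0.0414, 0.0474 and 0.0491). For PKD_DMSO against WT_DMSO the TALE median was 0.07, against 0.12 over all genes, with 1 gene called. For PKD_FP against WT_FP it was 0.52, against 0.07 over all genes, also with 1 called. Tgif1, a repressor that recognises the same kind of site, had 37.7 and 56.8 FPKM in PKD_FP, 39.5 and 36.9 in PKD_DMSO, 10.5 and 24.6 in WT_FP, and 13.1 and 13.3 in WT_DMSO (1.46 ± 0.26; limma, adjusted p = 0.00731). The Meis genes, the other classical partners, were not among those called. Of 31 Polycomb genes, whose complexes keep Hox clusters silent, 10 were higher and 0 lower (median 0.22), among them Pcgf5 (1.06 ± 0.11), the histone methyltransferase gene Ezh2 (0.70 ± 0.10), Rybp (0.65 ± 0.10) and Phc2 (0.81 ± 0.13). Of 22 trithorax and other activators of Hox transcription, 1 was higher, Mllt1 (0.40 ± 0.12; limma, adjusted p = 0.0386), and 0 lower.

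Retinoic acid induces head-side Hox genes in the embryo, and of 14 genes of its pathway tested, 5 were higher and 1 lower. Aldh1a2, which makes retinoic acid, had 35.1 and 49.4 FPKM in PKD_FP, 15.3 and 33.0 in PKD_DMSO, 3.79 and 1.62 in WT_FP, and 2.76 and 2.26 in WT_DMSO (3.17 ± 0.30; limma, adjusted p = 0.000935). Rdh10 (1.26 ± 0.13) and Aldh1a1 (1.69 ± 0.38), further enzymes of synthesis, were also higher, and Dhrs3, which reduces retinal back to retinol, was lower (−0.59 ± 0.12; limma, adjusted p = 0.0115). Of 5 upstream regulators tested, 2 were higher, among them Egr2 (2.53 ± 0.17), which acts on hindbrain Hox genes in mouse. Egr2 had 7.52 and 6.9 FPKM in PKD_FP, 4.59 and 7.29 in PKD_DMSO, 0.61 and 0.38 in WT_FP, and 0.09 and 0.16 in WT_DMSO. No WT library reached 1 FPKM, so Egr2 passed the filter only through the PKD libraries, where it was high. Of 14 macrophage and myeloid markers, 13 were higher in PKD; their part in these results was not tested. Of 16 genes that act with Hox11 in kidney induction, 0 were higher and 1 lower, Lhx1 (−1.03 ± 0.16; limma, adjusted p = 0.00447). For PKD_FP against PKD_DMSO and for WT_FP against WT_DMSO, none of these lists held a called gene, where 0.0139% and 0% of all genes were called.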

How the data were processed

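The deposited values are FPKM to 2 decimals, 1 file per library; the unit was inferred from the values, since the file headers name none. Bowtie2, DESeq2 and mm10 are named, per the submitters' processing notes, without a role; for the counting tool the sources used here give no name. Of 20245 rows per file, 4 with repeated symbols and 1 without a symbol were left out. Values were tested as log2(FPKM + 1), a scale that understates changes of low genes, in limma 3.58.1 (R 4.3.3) with trend and robust empirical Bayes, 1 mean per group over all 8 libraries. Genes entered when 2 or more libraries reached 1 FPKM, with Benjamini-Hochberg adjustment over 14391 genes and a threshold of 0.05. edgeR was not used, since the files hold no counts. The fit was tested on simulated data for each comparison. Named genes were the members called in any comparison, the 10 with the highest mean, and up to 4 called genes per list. Members and lists were chosen with earlier results of these data known. Alternatives covered pseudocount, filter, scaling, replicate block, samples in the fit, empirical Bayes settings and each library left out. Depth was estimated from the spacing of low values. Individual values of 2 genes are not reported here.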

Additional observations from a re-analysis of the deposited data

Results flagged for a closer look

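In 4 genes of the clusters the groups moved in opposite directions, every library of one pair above and every library of the other below, and the limma interaction did not call any of them. They were found among the 29 members and the tested noncoding transcripts inside the clusters. The share of all genes with this pattern was not counted, and each pair sets only 2 libraries against 2. Hoxa10 had an interaction of 0.60 ± 0.24 on the log2 scale (limma, adjusted p = 0.436): both PKD_FP libraries, at 38.0 and 49.96 FPKM, lay above WT_FP at 32.7 and 35.9, and both PKD_DMSO libraries, at 26.4 and 26.6, lay below WT_DMSO at 34.0 and 29.9. Hoxaas3, a noncoding transcript of HoxA, had one of −0.83 ± 0.27 (limma, adjusted p = 0.406), both between the drug differences of PKD and WT and between the genotype differences under FP and DMSO. It had 0.42 and 0.55 FPKM in PKD_FP, 1.04 and 1.01 in PKD_DMSO, 1.2 and 1.05 in WT_FP, and 0.52 and 0.74 in WT_DMSO. Only the PKD_DMSO and WT_FP libraries reached 1 FPKM, so Hoxaas3 passed the filter through the groups that make its pattern. Its pattern is therefore description only, at levels near the filter. The span of Hoxaas3 also overlaps those of Hoxa3, Hoxa5 and Hoxa6, whose reads cannot be told apart from its own. Hoxb5os had 0.76 ± 0.31 (limma, adjusted p = 0.442), higher with FP in PKD and lower with FP in WT. In WT the separation was slight, with 44.18 FPKM in WT_FP replicate 2 against 44.45 in WT_DMSO replicate 2. Mir196a-1 had −0.997 ± 0.39 (limma, adjusted p = 0.43), lower with FP in PKD and higher with FP in WT.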

How the results depend on the processing

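Counts of called Hox genes depended on the setting, and no call reversed. For PKD against WT averaged over treatment, 4 were higher as reported, and 2 with no filter on low values, with median-of-ratios scaling or with the replicate block, and 6 with quantile normalization; leaving out 1 library gave 1 to 5. The 2 lower became 1 with no filter or with trend and robust settings off, 4 with quantile normalization and 0 with the replicate block; leaving out 1 library gave 0 to 3. For PKD_FP against WT_FP, the 1 higher became 2 with quantile normalization and 0 with the replicate block or with only the groups compared; leaving out 1 library gave 0 to 2. For PKD_DMSO against WT_DMSO, 2 were lower with median-of-ratios scaling and 2 with quantile normalization, and leaving out 1 library gave 0 to 1 higher. Without WT_FP replicate 2 and PKD_FP replicate 2 together, a choice made after seeing the data, 2 were higher and 0 lower averaged over treatment, and 0 higher for PKD_FP against WT_FP. Both drug comparisons and the interaction gave 0 under each setting. The cause was not tested, apart from fewer samples where a library was left out; a group with 1 library left is assumed to vary like the others. Correlations of same-numbered deviations ran from −0.515, for WT_FP with WT_DMSO, to 0.485, for PKD_FP with WT_FP. With 2 libraries a group, these values cannot tell whether same-numbered libraries were handled together.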
